A study of Homo sapiens with 8 samples.

Results

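The subject is 212 small open reading frames (smORFs) that lie in host genes of vesicle trafficking, out of 24199 smORFs measured by ribosome profiling (Ribo-Seq) in Caco-2 cells. They were chosen by the name of the host gene alone, that is, any gene symbol given to the smORF in the deposited annotation that is built as RAB, VPS, SEC, SNX, COP or VAMP followed by the numbers and letters of those families. The rule used no measured value, and it found smORFs in 63 host genes, of which 22 encode RAB GTPases. Ribo-Seq sequences the RNA fragments that a ribosome protects from nuclease digestion, so reads inside a smORF are a sign of ribosomes on that stretch of RNA. Caco-2 is an established human cell line from a colon adenocarcinoma, used as a model of the small intestine because it differentiates into enterocyte-like cells. The 8 libraries fall into 4 groups of 2: undifferentiated cells, differentiated cells with no further treatment (differentiated control), differentiated cells given taurocholate micelles, which hold no lipid (micelles without lipid), and differentiated cells given micelles with oleic acid, cholesterol and bovine serum albumin (lipid micelles). All 8 come from the same line, and no source used here says whether the 2 libraries of a group came from separate cultures, so p-values measure only the spread between these libraries, which may be technical.

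Membrane traffic moves newly made proteins and lipids from the endoplasmic reticulum (ER) through the Golgi to the cell surface, and brings material back through endosomes to lysosomes. Coats such as COPII (outward from the ER) and COPI (back from the Golgi) bend membrane into vesicles, RAB GTPases mark each compartment and recruit the machinery that moves and tethers vesicles, and SNARE proteins of the VAMP and SEC22 families drive fusion. In enterocytes this machinery sorts proteins to the apical and basolateral surfaces and exports absorbed fat as chylomicrons, which leave the ER in large COPII-dependent carriers.

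The sequences below are the first 30 bases of 7 smORFs, written 5′ to 3′ on their own strand from the human genome hg38, with the first codon in capitals. The first pair rose most between undifferentiated and differentiated control cells among the members named by the rule, the next pair fell most, and the last 3 were the most abundant smORFs of the RAB GTPases, the COPII coat and the COPI coat. They show that the annotated reading frames begin with ATG in some members and with other codons in most. CTG, GTG, TTG or ACG began 17 of the 212 (8.02%), against 4.51% of all smORFs. The first codon is that of the annotated frame, and whether translation starts there was not tested.
VPS29 IEC_21620 (chr12:110498797-110498880, minus strand): ATGtacttcaatccatatcagaaggaatcc
RAB29 IEC_16614 (chr1:205774979-205775410, minus strand, 2 exons): GGAatcgaggtgccggctgctccttcctca
RAB1A IEC_17917 (chr2:65130157-65130189, minus strand): ATGccaggcggtgcggccgccctctgggcc
SEC16A IEC_14268 (chr9:136483694-136483777, minus strand): CCAgcccaacggaagaatgcgaggagcgcg
RAB6A IEC_14880 (chr11:73760840-73761136, minus strand): GCGgccggcggggccgcaggctcgcgcccg
SEC31A IEC_16135 (chr4:82900170-82900435, minus strand, 2 exons): ATGcgaagcagagaggcaggaccaaaattg
COPB2 IEC_15492 (chr3:139389589-139389678, minus strand): CTAtcgcgagaatcggctcccggaagttcc

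By the authors' location classes, 188 of the 212 smORFs (88.7%) were uORFs, which lie in the 5′ untranslated region (UTR) of the host gene, 18 (8.49%) were dORFs, which lie in its 3′ UTR, and 6 (2.83%) lay in non-coding transcripts. Among all 24199 smORFs the shares were 69.9%, 6.60% and 22.3%. An ATG start was present in 77 (36.3%), against 43.4% of all smORFs, and among the dORFs in 15 of 18. Their median length was 29 amino acids, with a range from 6 to 135, against 31 for all. Of the 137 that could be placed once in an annotated 5′ UTR, the median distance from the end of the smORF to the main coding sequence was 82 nt (5 to 651), against 102 nt for all 12934 smORFs so placed. Among the ATG smORFs that could be placed, 8 of 69 (11.6%) had a purine 3 bases before the ATG together with a G right after it, the sequence context that favours initiation, against 21.0% of all. The purine, with or without that G, went the other way, with 46 of 69 (66.7%) against 57.8% of all. The score of coding conservation across species (mean PhyloCSF) was above 0 for 1 member, IEC_17083 in RAB14, a GTPase of Golgi and endosome traffic, which has 8 amino acids and a score of 2.06. The paper used another measure, a tBLASTn search of other genomes. By that search it predicts a protein almost unchanged in every mammal it tested for another member, the RAB1A dORF IEC_17915. None of the 212 overlapped annotated coding sequence (0 smORFs). The authors kept only smORFs that lie outside coding regions known to RefSeq, so this was largely set in advance.

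Many of these smORFs are not independent of each other. They fall into 105 overlap clusters, in which overlapping smORFs are joined and a smORF that overlaps no other is a cluster of its own. Of the 212, 156 overlap at least 1 other smORF, and 16 have exactly the counts of another member in all 8 libraries. An exon of the named host gene, on its strand, was touched by 204 members, and 171 lay in exons of that gene alone. The 8 that touched no such exon were 1 in SEC14L1, 3 in RAB27A, 3 in RAB3D and 1 in SEC31A, and they lie in exons of neighbouring transcripts. A further 26 overlapped an exon on the opposite strand, and since the counting options are not given, such reads cannot be told apart. By role, 78 smORFs lay in RAB GTPases, 28 in the COPII coat, 28 in sorting nexins and 14 in the COPI coat. The VAMP and SEC22 families held 10, and the ER translocon and signal peptidase 8. There were 7 in HOPS and CORVET tethers, 7 in retromer and retriever and 5 in ESCRT. GARP and EARP tethers held 5, and the VPS13 lipid transfer proteins 1. Another 21 lay in 4 genes that the rule takes by name but that are not members of these families: RAB3IP, an activator of a RAB, RAB5IF, an ER membrane protein factor, SEC14L1, a SEC14-like protein, and VPS72, a chromatin subunit.

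The libraries held between 506382 and 884711 smORF counts, of which between 4856 and 8380 fell in these 212 smORFs. Levels below are in CPM, counts scaled to a common library size by edgeR's TMM method. The summed CPM of smORFs in enterocyte marker genes ran from 1666 to 2106 in undifferentiated and from 4010 to 4115 in control cells, over the 9 of 20 marker genes that hold a smORF. Villin, sucrase-isomaltase, lactase and the intestinal alkaline phosphatase hold none, so these defining genes could not be checked. Proliferation markers (7 of 12 genes) went from between 7984 and 8315 CPM to between 663 and 691 CPM, epithelial markers (5 of 8) from between 3101 and 3508 to between 3639 and 3706, fibroblast markers (5 of 7) from between 55.1 and 99.0 to between 1.30 and 1.95, and leukocyte markers (2 of 6) from between 7.86 and 8.89 to between 1.95 and 11.7. The part of these shifts in the results below was not tested, and in such bulk libraries fewer cells of a type and less RNA per cell cannot be told apart. Nor can more RNA and more translation of the same RNA, since no RNA-seq library of these cells was used here.

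The share of counts in trafficking host genes did not separate undifferentiated from control cells. It was 0.876% and 0.960% in undifferentiated cells, 0.959% and 0.878% in control cells, 0.932% and 0.867% after micelles without lipid, and 0.974% and 0.947% after lipid micelles. The 2 lipid micelle libraries lay above the 2 given micelles without lipid, a difference that was not tested. The undifferentiated and control ranges overlapped almost fully, with means of 0.918% ± 0.0597 and 0.918% ± 0.0573 (SD, n = 2; exact two-sided permutation test, p = 1, where the smallest p that 2 against 2 allows is 0.33). At 10 counts or more, 84 members (39.6%) were detected in all 8 libraries and 171 (80.7%) in at least 1, against 27.4% and 71.5% of all smORFs. The 6 members without a single count were 2 in SNX10, 2 in SNX20, 1 in RAB39A and 1 in RAB7B, where a count of 0 allows up to 3.49 to 5.86 CPM per library.

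**Figure D1:**
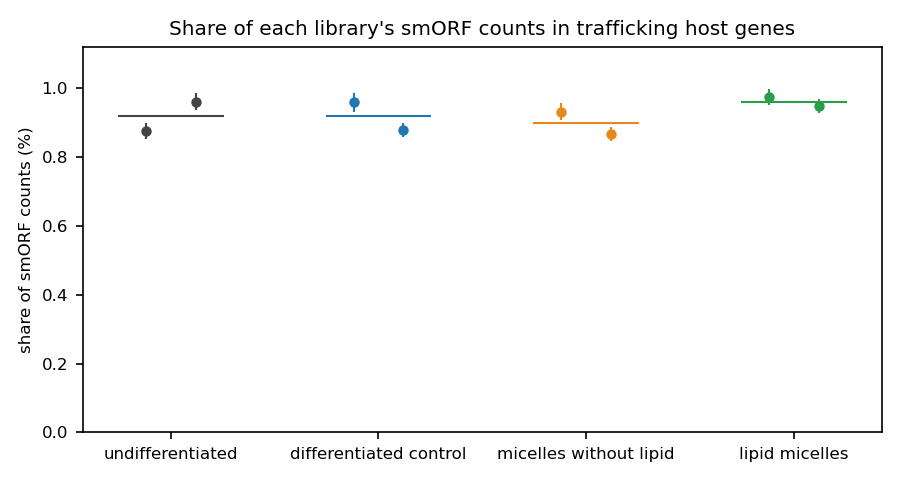
Share of each library's smORF counts that fell in the 212 smORFs of trafficking host genes, in percent. Points are libraries with their 95% Wilson interval (counting error only) and lines are group means, from 0.900% after micelles without lipid to 0.960% after lipid micelles.

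Differentiation was the first question, asked by comparing differentiated control with undifferentiated cells. Enough counts for a test were present in 162 of the 212 smORFs, and the 50 others are not described by what follows. By edgeR's quasi-likelihood test (called at an adjusted p below 0.05 together with a change of 1 or more on the log2 scale), 10 smORFs were higher and 20 were lower in differentiated cells, or 30 of 162 (18.5%). Over all smORFs tested the background was 33.3%, made up of 17.7% higher and 15.6% lower. An unadjusted p under 0.05 was reached by 56 members, where the background was 46.6%. The 30 calls fell in 20 overlap clusters and 17 host genes. The higher calls lay in RAB29, RAB17, VAMP8, SEC61G and VPS29, and the lower calls in RAB1A, RAB23, RAB43, SEC16A, SEC23B, COPB1, SEC22C, SEC11A, SEC61A1, SNX3, SNX19 and VPS18. The median log2 fold change of the members was -0.14, with the middle of the distribution from -0.69 to 0.58, and that of all smORFs was 0.01. Undifferentiated and control libraries did not overlap for 48 members that were higher and 61 that were lower, where the background was 35.2% and 34.2%. The balance of higher and lower calls depended on the method: DESeq2's Wald test gave 15 calls (8 higher, 7 lower), and the 84 smORFs with 10 counts in every library gave 12 (8 higher, 4 lower). Without undifferentiated replicate 2 there were 18 calls (10 higher, 8 lower), and without control replicate 2 there were 14 (8 higher, 6 lower).

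**Figure D2:**
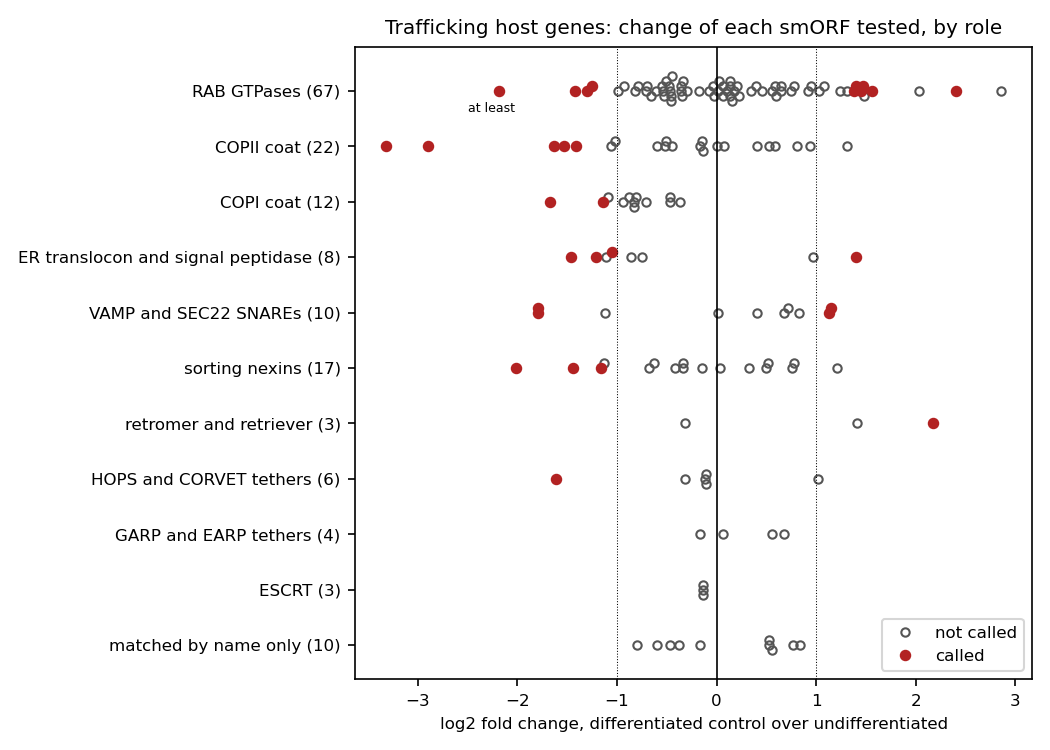
Change of each of the 162 smORFs tested between undifferentiated and differentiated control cells, as the log2 fold change on the horizontal axis, by role of the host gene with the number tested in brackets. Filled points are the 30 calls, dotted lines mark a log2 fold change of 1 either way, and the point marked "at least" is a lower bound for RAB1A. No COPI smORF lay above 0, and the COPII calls all lay below it.

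Of 67 smORFs tested in RAB GTPases, 6 were called higher and 4 lower. That is 14.9% called, below the 33.3% of all smORFs, and the 6 rises lay in 3 overlap clusters of RAB29 and RAB17. RAB29, which acts on endolysosomes and at the Golgi and is known for its link to the kinase LRRK2, rose at its uORFs. Its uORF IEC_16614 (82 amino acids, ending 22 nt before the coding sequence) had 61.3 and 83.5 CPM in undifferentiated cells, 225 and 178 in control cells, 225 and 260 after micelles without lipid, and 263 and 268 after lipid micelles. Every differentiated library lay above both undifferentiated ones. The log2 fold change was 1.47 ± 0.28 (SE, edgeR adjusted p = 0.00058). The shorter ATG uORF inside the same stretch, IEC_13251 with 14 amino acids, held 3 and 11 counts before and 38 and 41 after differentiation (control), a rise of 2.40 ± 0.47 on the log2 scale (edgeR adjusted p = 0.000808). All 7 smORFs of RAB29 had positive fold changes, and 4, all in 1 overlap cluster, were called. Its 2 dORFs are in another cluster and were not called, with log2 fold changes of 2.86 ± 1.29 (9 counts against 1, ratio 8.43, 95% counting interval 1.17 to 369) and 2.03 ± 0.81.

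RAB17, an epithelial RAB known for apical recycling and transcytosis, had smORFs that did not move together. The ATG uORF IEC_13823 (chr2:237590487-237590513, minus strand) encodes 9 amino acids and ends 23 nt before the coding sequence. Its level was 73.9 and 40.9 CPM in undifferentiated cells, 170 and 138 in control cells, 92.5 and 83.0 after micelles without lipid, and 77.3 and 116 after lipid micelles. Control libraries were the highest, the micelle libraries lay between, and the groups of the comparison did not overlap (log2 fold change 1.40 ± 0.32, SE, edgeR adjusted p = 0.00287). Just upstream, the uORF IEC_13824 (79 amino acids) had 295 and 295 CPM in undifferentiated and 285 and 289 in control cells, a log2 fold change of -0.04 ± 0.24. The dORF IEC_13822 (85 amino acids) had 3 and 9 counts against 14 and 20 and was called higher (1.38 ± 0.52, edgeR adjusted p = 0.0449). The difference between these smORFs was not tested. RAB25, a RAB of recycling endosomes in epithelial cells, had an ATG uORF, IEC_03418, at 81.7 and 114 CPM in undifferentiated and 205 and 164 CPM in control cells (0.91 ± 0.30, edgeR adjusted p = 0.0236), under the fold required for a call.

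The falls among RAB GTPases lay in RAB1A, RAB23 and RAB43. RAB1A acts between ER and Golgi. Its uORF IEC_17917 (11 amino acids) had 18 and 9 counts in undifferentiated cells and 0 in all 6 differentiated libraries, at least 4.53-fold lower in control cells against a floor of 3 counts per library (edgeR adjusted p = 0.00183, but 0.359 by DESeq2). It is nested in the uORF IEC_17916 (chr2:65130086-65130322, minus strand, 79 amino acids), which had 155 and 175 counts in undifferentiated cells, 135 and 135 in control cells, 150 and 126 after micelles without lipid, and 132 and 162 after lipid micelles, with no call (-0.34 ± 0.28). The larger reading frame thus held counts in every library while the frame inside it was at 0 after differentiation. These zeros were not checked in the reads, and how reads of nested frames were assigned is not given in the sources used here, so the fall is uncertain. The third RAB1A smORF is the dORF IEC_17915 (87 amino acids), named here after its values were seen, with 12 and 6 counts in undifferentiated and 10 and 9 in control cells.

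RAB23, known as a brake on Hedgehog signalling, fell at the uORF IEC_19770 (chr6:57222022-57222165, minus strand, 48 amino acids). Its level was 40.9 and 53.3 CPM in undifferentiated cells, 21.5 and 14.3 in control cells, 16.3 and 15.2 after micelles without lipid, and 17.8 and 11.6 after lipid micelles. All 6 differentiated libraries lay below both undifferentiated ones (log2 fold change -1.42 ± 0.42, SE, edgeR adjusted p = 0.014). The call was lost with DESeq2 (adjusted p = 0.0825), without undifferentiated replicate 2 (0.0932) and without control replicate 2 (0.161). RAB43, a Golgi RAB, fell at the uORF IEC_15018 (chr3:129121546-129121803, minus strand, 86 amino acids), from 36.1 and 56.9 CPM to 17.6 and 19.5 CPM in control cells, with 19.9 to 29.1 CPM in the 4 micelle libraries. Again no differentiated library reached an undifferentiated one (-1.30 ± 0.41, edgeR adjusted p = 0.0207). This call was lost with DESeq2 (adjusted p = 0.0938), without undifferentiated replicate 2 (0.180), without control replicate 1 (0.0959) and without control replicate 2 (0.0982).

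The most abundant member of all was IEC_14880 in RAB6A, the RAB of traffic within and from the Golgi, with 99 amino acids and a mean of 419 CPM over the 8 libraries. It had 358 and 345 CPM in undifferentiated cells, 344 and 449 in control cells, 344 and 531 after micelles without lipid, and 538 and 445 after lipid micelles. The groups overlapped and no difference passed the test (0.18 ± 0.26 on differentiation). RAB5A of early endosomes had 6 smORFs tested, all positive between 0.10 and 0.34 and none called. In RAB27A, known for exocytosis of secretory granules and exosomes, 7 of 8 were positive and none was called. Per 100 nt of reading frame, the RAB17 uORF IEC_13823 reached 367 CPM and RAB6A 141 CPM, so the order by level differs from that by count.

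Calls in the ER entry and exit machinery were mostly lower in differentiated cells. In the ER translocon and signal peptidase, 1 of 8 tested was called higher and 3 lower, the latter in 2 overlap clusters. That is 50% called, against 33.3% of all smORFs. SEC61A1 is the channel subunit through which new proteins enter the ER. Its uORF IEC_07415 (chr3:128052426-128052518, plus strand, 31 amino acids) had 121 and 130 CPM in undifferentiated cells, 56.7 and 52.0 in control cells, 52.6 and 53.9 after micelles without lipid, and 90.6 and 64.0 after lipid micelles. Undifferentiated libraries were the highest of the 8 (log2 fold change -1.21 ± 0.29, SE, edgeR adjusted p = 0.00406), and the call was lost without control replicate 2 (adjusted p = 0.0532). SEC61G, a small subunit of the same channel, went the other way at the dORF IEC_16084 (chr7:54752273-54752323, minus strand, 17 amino acids): 22.0 and 17.8 CPM in undifferentiated cells, 50.8 and 54.6 in control cells, 32.6 and 34.6 after micelles without lipid, and 28.2 and 31.4 after lipid micelles. No differentiated library fell as low as undifferentiated cells (1.40 ± 0.37, edgeR adjusted p = 0.00747), but the call was lost with DESeq2 (adjusted p = 0.0549) and without undifferentiated replicate 2 (0.0548). The SEC61A1 and SEC61G smORFs also differ in location class. Over all smORFs tested, the median log2 fold change was 0.95 for dORFs and -0.21 for uORFs. The part of location in this contrast was not tested. SEC11A is a catalytic subunit of signal peptidase. Its uORF IEC_13961 had 33.0 and 26.7 CPM in undifferentiated cells and 5.86 and 14.3 CPM in control cells (-1.46 ± 0.50, edgeR adjusted p = 0.0293). That call was lost with DESeq2 (adjusted p = 0.122), without undifferentiated replicate 1 (0.146) or 2 (0.0602) and without control replicate 1 (0.199, with a log2 fold change of -1.01), and without control replicate 2 the value was -2.28.

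Among 22 smORFs of the COPII coat, 0 were called higher and 5 lower, the latter in 3 overlap clusters (22.7% called, against 33.3% of all smORFs). SEC23B, a coat subunit, held 4 of these calls, and all 5 of its smORFs tested were negative. Its uORF IEC_04220 (chr20:18507940-18507969, plus strand, 10 amino acids, starting with GTT) had 31.4 and 40.9 CPM in undifferentiated cells, 3.91 and 5.20 in control cells, 9.06 and 4.15 after micelles without lipid, and 7.43 and 5.82 after lipid micelles. The differentiated libraries all lay far below the undifferentiated ones (log2 fold change -2.90 ± 0.59, SE, edgeR adjusted p = 0.00119). The 3.91 CPM of control replicate 1 is under the floor of 3 counts, which is 5.86 CPM in that library, so the size of this fall is uncertain. The fall was also called at the non-overlapping ATG uORF IEC_00855, with 20 and 21 counts against 6 and 9 (-1.53 ± 0.45, edgeR adjusted p = 0.0137). SEC23A, its paralog, had 3 smORFs tested, between -0.17 and 0.00, and none was called. SEC16A, the scaffold of ER exit sites, fell at the uORF IEC_14268 (28 amino acids), with 10 and 11 counts in undifferentiated cells and 2 and 0 in control cells. That is a ratio of 11.2 with a 95% counting interval from 2.74 to 98.6 (edgeR adjusted p = 0.0166), and the other 4 differentiated libraries held between 0 and 2 counts. The call was lost with DESeq2 (adjusted p = 0.0734), without undifferentiated replicate 1 (0.0793) or 2 (0.124) and without control replicate 2 (0.239, where the fitted log2 fold change was -2.08 against -3.32 with all libraries). Without control replicate 1 the remaining control library is at 0, which leaves no fold.

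SEC31A, the outer COPII coat, had the most abundant COPII smORF and no call. Its uORF IEC_16135 (52 amino acids) had 272 and 318 CPM in undifferentiated cells, 397 and 382 in control cells, 392 and 246 after micelles without lipid, and 282 and 373 after lipid micelles. Both control libraries lay above both undifferentiated ones, while the micelle libraries spanned the same range (0.40 ± 0.27, edgeR adjusted p = 0.25). In the same overlap cluster the ATG uORF IEC_16134 (27 amino acids) had 80.2 and 78.2 CPM against 143 and 160 CPM (0.94 ± 0.29, edgeR adjusted p = 0.0196), just under the fold required, and IEC_16136 (56 amino acids, starting with TGG) had a log2 fold change of -0.14 ± 0.24. These overlapping frames share reads and lie in exons of SEC31A and of the antisense-named transcript THAP9-AS1 on the same strand.

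In the COPI coat, 12 of 12 smORFs tested lay below 0, and 2 (16.7%, against 33.3% of all smORFs) were called lower. The 12 form 3 overlap clusters in COPB1 and COPB2, the beta and beta-prime subunits of the coat, and the median of all uORFs was also negative (-0.21). COPB1 fell at the uORF IEC_21267 (chr11:14499674-14499706, minus strand, 11 amino acids), from 37.7 and 56.9 CPM in undifferentiated cells to 9.77 and 18.2 in control cells, with 7.25 and 11.1 after micelles without lipid and 19.3 and 17.5 after lipid micelles. No differentiated library overlapped the undifferentiated ones (log2 fold change -1.68 ± 0.44, SE, edgeR adjusted p = 0.0074), but the call was lost without undifferentiated replicate 2 (adjusted p = 0.0788) and without control replicate 1 (0.0714). The second call, IEC_13410, is a 6-codon ATG frame outside that cluster with 36 and 29 counts against 14 and 17 (-1.14 ± 0.36, edgeR adjusted p = 0.0194). In COPB2 the most abundant uORF, IEC_15492, had 134 and 105 CPM in undifferentiated and 76.2 and 107 CPM in control cells, and its 5 overlapping smORFs lay between -0.83 and -0.37 with no call.

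The VAMP and SEC22 families were split by gene. VAMP8, an R-SNARE of late endosomes, lysosomes and regulated exocytosis, rose, and SEC22C, a SEC22-family protein of the ER, fell, with 2 calls each of 10 smORFs tested. These calls lay in 2 overlap clusters, and 40% were called, against 33.3% of all smORFs. The VAMP8 uORF IEC_00925 (chr2:85577586-85577621, plus strand, 12 amino acids, ending 25 nt before the coding sequence) had 39.3 and 53.3 CPM in undifferentiated cells, 93.8 and 111 in control cells, 123 and 126 after micelles without lipid, and 152 and 147 after lipid micelles. All differentiated libraries lay above the undifferentiated ones (log2 fold change 1.15 ± 0.30, SE, edgeR adjusted p = 0.00591). The call was lost without undifferentiated replicate 1 (adjusted p = 0.0718) and without control replicate 2 (0.0510). The second call overlaps it almost fully, and the 3 dORFs of VAMP8 were positive, from 0.67 to 0.83, with no call. At SEC22C the uORF IEC_18438 (chr3:42580493-42581937, minus strand, 35 amino acids in 2 exons) had 11 and 12 counts in undifferentiated cells and 2 and 5 in control cells, with 3 to 7 counts in the micelle libraries. Its counts are identical to those of IEC_18576, so the 2 calls are 1 measurement (-1.79 ± 0.66, edgeR adjusted p = 0.040). It was lost in 10 of 13 alternatives, among them DESeq2 (adjusted p = 0.151), the replicate block (0.0516) and the omission of any 1 library (0.0518 to 0.194). SEC22B, which works between ER and Golgi, had 2 smORFs at 0.01 and 0.40 and no call.

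**Figure D3:**
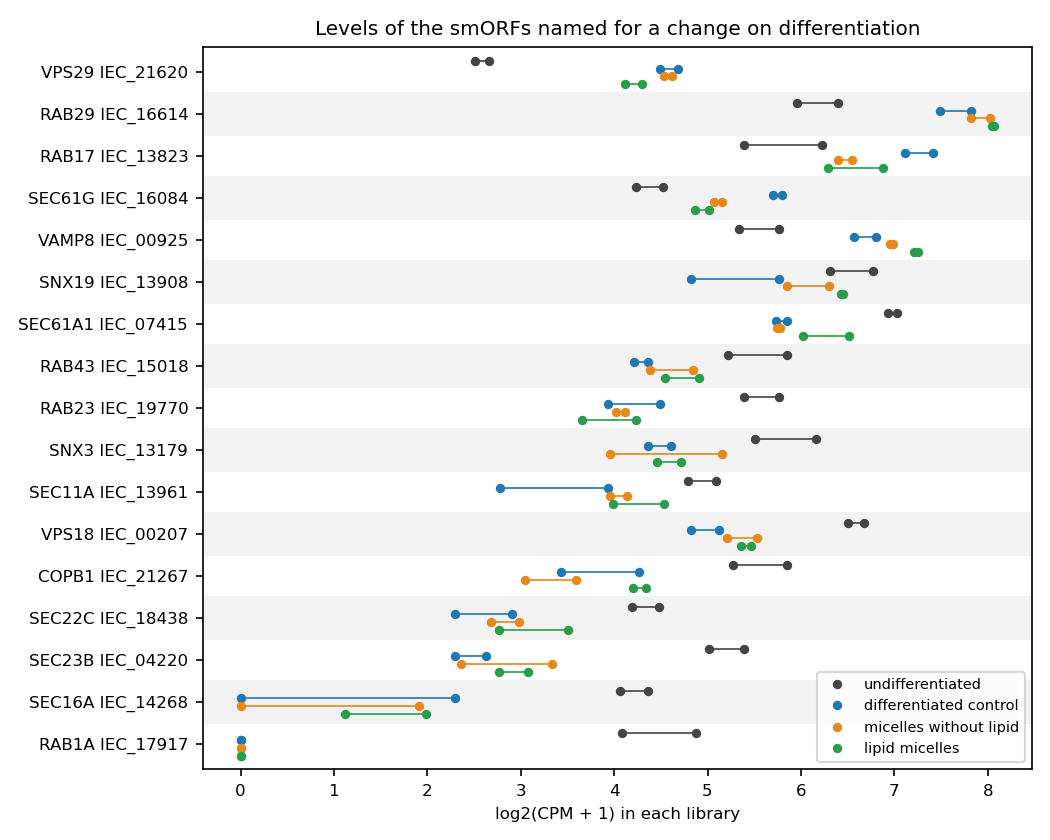
Level of the 17 smORFs named for a change on differentiation, 1 per host gene, as log2(CPM + 1) in each of the 8 libraries, with the 2 libraries of a group joined by a line. By the rule that named them, undifferentiated and control libraries do not overlap for any of the 17, and RAB1A IEC_17917 sits at 0 in all 6 differentiated libraries.

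In endosomal sorting, the retromer and retriever gave 1 call among 3 smORFs tested, a rise (33.3% called, and 33.3% over all smORFs). The calls in sorting nexins were all lower. VPS29 is a core subunit shared by retromer and retriever, which return receptors from endosomes. Its ATG uORF IEC_21620 (28 amino acids) had 4.71 and 5.33 CPM in undifferentiated cells, 21.5 and 24.7 in control cells, 23.6 and 22.1 after micelles without lipid, and 16.3 and 18.6 after lipid micelles. The undifferentiated libraries stood apart below the other 6, with 6 counts against 30 in control cells, a ratio of 4.68 with a 95% counting interval from 1.92 to 13.8 (log2 fold change 2.18 ± 0.56, SE, edgeR adjusted p = 0.00622). VPS26C of retriever had 1 smORF tested, with 5 and 3 counts against 10 and 13 (1.41 ± 0.58, edgeR adjusted p = 0.0623), and VPS26B of retromer, IEC_08609, was at 48.7 and 48.0 CPM against 45.0 and 33.8 CPM.

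Sorting nexins bind phosphoinositides on endosomes. Of their 17 smORFs tested, 0 were called higher and 3 lower, in 2 overlap clusters. That is 17.6% called, against 33.3% of all smORFs, while 7 had positive fold changes. SNX3, an adaptor of retromer, had both of its smORFs called. The uORF IEC_13179 (chr6:108260975-108261244, minus strand, 90 amino acids) had 70.7 and 44.4 CPM in undifferentiated cells, 23.5 and 19.5 in control cells, 14.5 and 34.6 after micelles without lipid, and 25.3 and 21.0 after lipid micelles. Undifferentiated libraries were the highest (log2 fold change -1.44 ± 0.43, SE, edgeR adjusted p = 0.0145), but the call was lost with DESeq2 (adjusted p = 0.0607), without undifferentiated replicate 1 (0.153) and without control replicate 2 (0.114). At SNX19 the uORF IEC_13908 (chr11:130916369-130916479, minus strand, 37 amino acids) had 78.6 and 108 CPM in undifferentiated cells, 27.4 and 53.3 in control cells, 78.0 and 56.7 after micelles without lipid, and 86.2 and 85.0 after lipid micelles. The control libraries were thus the lowest of all 8, and the lipid micelle libraries lay within the undifferentiated range (-1.16 ± 0.34, edgeR adjusted p = 0.0146). The call was lost without undifferentiated replicate 2 (adjusted p = 0.126) and without control replicate 1 (-0.76, adjusted p = 0.164). The 3 other SNX19 smORFs were positive, from 0.51 to 1.21, and none was called. SNX13 had the most abundant sorting nexin smORF, IEC_18141, at 59.7 and 110 CPM against 143 and 97.5 CPM, and these overlapped.

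The tethers and ESCRT gave 1 call, among 6 smORFs tested in HOPS and CORVET (16.7% called, against 33.3% of all smORFs). VPS18, a core subunit of HOPS and CORVET, which tether endosomes and lysosomes, fell at the uORF IEC_00207 (chr15:40894596-40894715, plus strand, 40 amino acids, ending 53 nt before the coding sequence). It had 89.6 and 101 CPM in undifferentiated cells, 27.4 and 33.8 in control cells, 45.3 and 35.9 after micelles without lipid, and 40.1 and 43.1 after lipid micelles. The undifferentiated libraries lay well above the other 6 (log2 fold change -1.62 ± 0.32, SE, edgeR adjusted p = 0.000937). Of the 4 smORFs tested in the GARP and EARP tethers, the most abundant, VPS54 IEC_14023, had 45.6 and 62.2 CPM against 99.7 and 74.1 CPM (0.68 ± 0.46), and 0 were called. In ESCRT, all 3 smORFs tested belong to VPS37A and have identical counts, with IEC_08427 at 20.4 and 14.2 CPM against 19.5 and 13.0 CPM. VPS13D, a lipid transfer protein, had a single smORF with 2 to 12 counts per library, too few to be tested. Of the 10 smORFs tested in genes taken by name alone, 0 were called. Their most abundant, IEC_03512 with 7 amino acids at the SEC14L1 locus, lies in exons of SNHG20, SCARNA16 and MIR6516 and not of SEC14L1, so its reads, 66.0 to 149 CPM, are uncertain. For ESCRT, GARP and EARP and the genes taken by name, the counts at an unadjusted p under 0.05 were 0, 0 and 1. The background was 46.6% of all smORFs.

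Of the 17 smORFs named here for a change, 5 kept their call under each alternative that could be fitted: those of VPS29, RAB29, RAB17, SEC23B and VPS18. Among host genes with at least 5 smORFs tested, the signs agreed throughout in RAB29, VAMP8 and RAB5A (positive) and in COPB1, COPB2 and SEC23B (negative). They were mixed in RAB17 (4 of 6 positive), RAB27A (7 of 8), SEC31A (5 of 7), SEC14L1 (3 of 6), RAB3D (2 of 5) and RAB9A (1 of 5). Since smORFs of a gene often share reads, this agreement does not count as independent evidence.

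**Figure D4:**
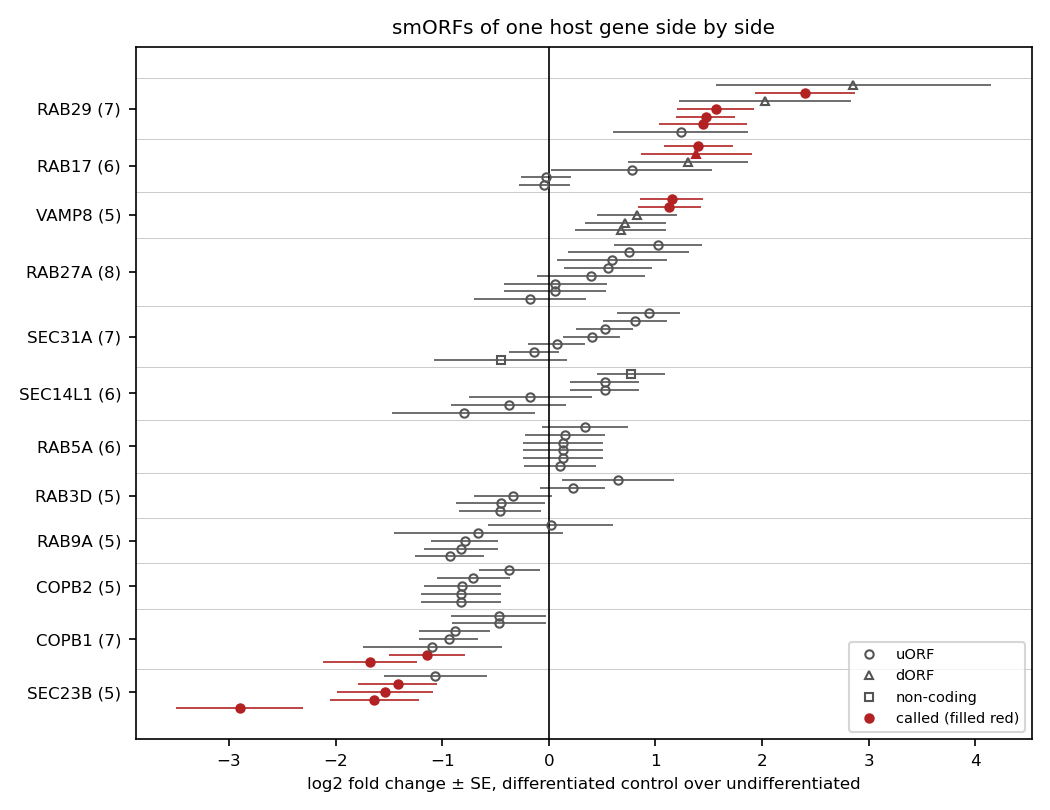
Log2 fold change ± SE between undifferentiated and differentiated control cells for each smORF of the 12 host genes with at least 5 smORFs tested (number in brackets), ordered by the gene's median. Symbols give the location class and red the calls. RAB29 lies wholly above 0, and SEC23B, COPB1 and COPB2 wholly below it.

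Position within the host transcript went with the direction of change. The 14 dORFs tested had a median log2 fold change of 0.89 with 12 positive, and the 145 uORFs had a median of -0.17. Of the dORFs, 2 were called higher and 0 lower (14.3% called, against 39.1% of all dORFs tested). Of the uORFs, 8 were called higher and 20 lower (19.3% called, against 29.7% of all uORFs tested). The medians went the same way over all smORFs, at 0.95 for 879 dORFs and -0.21 for 11112 uORFs, so this direction is not particular to trafficking genes. The 55 members that begin with ATG had a median of 0.40 and the 107 that begin with another codon a median of -0.33. Start codon went with location class, since ATG began 15 of 18 member dORFs and 57 of 188 member uORFs. The medians of all smORFs by start codon are not given here. No test was made of these differences.

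Other genes of the same transport steps, outside the naming rule, were taken from a list of their own. Of 133 smORFs tested in them, 2 were called higher and 20 lower, with a median log2 fold change of -0.39. That is 16.5% called against 33.3% of all smORFs, and the 22 calls lay in 11 overlap clusters. Clathrin and its adaptors held 14 of the falls among 35 tested (15.6% of all smORFs were called lower) and 0 rises, and these 14 lay in 6 overlap clusters, among them CLTC, the clathrin heavy chain, whose uORF IEC_01150 had 149 and 114 counts in undifferentiated and 45 and 80 in control cells (-1.18 ± 0.26, edgeR adjusted p = 0.00216). The ARF and SAR GTPases, which start coat assembly, had 1 rise and 1 fall among 39 (5.13% called, against 33.3% of all smORFs). The rise lay in SAR1B, the COPII GTPase needed for chylomicron export, whose dORF IEC_18041 had 1 and 4 counts in undifferentiated, 8 and 17 in control, 14 and 18 after micelles without lipid, and 11 and 15 after lipid micelles (2.15 ± 0.65, edgeR adjusted p = 0.0163). The fall lay in its paralog SAR1A, with 134 and 137 counts against 55 and 71 at the uORF IEC_17047 (-1.19 ± 0.30, edgeR adjusted p = 0.00515). Here a dORF is set beside a uORF, and the part of location class in the contrast was not tested.

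Syntaxins and SNARE factors had 0 rises and 2 falls among 28 (7.14% called, against 33.3% of all smORFs). The falls were led by the Golgi SNARE VTI1A, whose uORF IEC_07174 had 23 and 21 counts against 2 and 6 (-2.53 ± 0.55, edgeR adjusted p = 0.00179). In the same list STX16 had 22 and 14 counts against 39 and 35 with no call. p24 cargo receptors and Golgi matrix proteins had 1 rise, in GOLGA3 (4 and 4 counts against 13 and 14, 1.65 ± 0.55, edgeR adjusted p = 0.0253), and 3 falls among 22, led by BLZF1 (58 and 38 counts against 11 and 15, -1.96 ± 0.39, edgeR adjusted p = 0.000927). That is 18.2% called in the p24 and Golgi matrix list, against 33.3% of all smORFs. Exocyst, TRAPP and COG tethers had 0 calls among 8 by edgeR, with EXOC5 at 46 and 25 counts against 12 and 32. The single smORF of the RAB recycling factors, in GDI2, had 66 and 43 counts against 105 and 85 (0.79 ± 0.35, edgeR adjusted p = 0.0912).

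The micelle comparisons asked what taurocholate micelles and their lipid cargo change in differentiated cells, and both comparisons with control cells use the same 2 control libraries. By edgeR, 0 of 162 members were called in each of the 3 comparisons, where the background over all smORFs was also 0. At an unadjusted p under 0.05 there were 8 members when micelles without lipid were set against control cells (background 4.08%), 8 when lipid micelles were (4.66%), and 3 when the micelle groups were set against each other (4.11%). DESeq2 gave 0 calls and 3, 1 and 1 members at an unadjusted p under 0.05, where the background was 1.27%, 1.45% and 1.11%. edgeR with the replicate number as a block gave 0 calls among 154 members, where the background was 0.104%, 0.00696% and 0.0975%, and 9, 14 and 3 members at an unadjusted p under 0.05, where it was 5.89%, 6.91% and 5.52%. The median log2 fold changes of the members were 0.13, 0.13 and 0.05, against 0.01, 0.00 and -0.01 for all smORFs. The smallest adjusted p of a member was 0.881, 0.957 and 0.999.

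**Figure D5:**
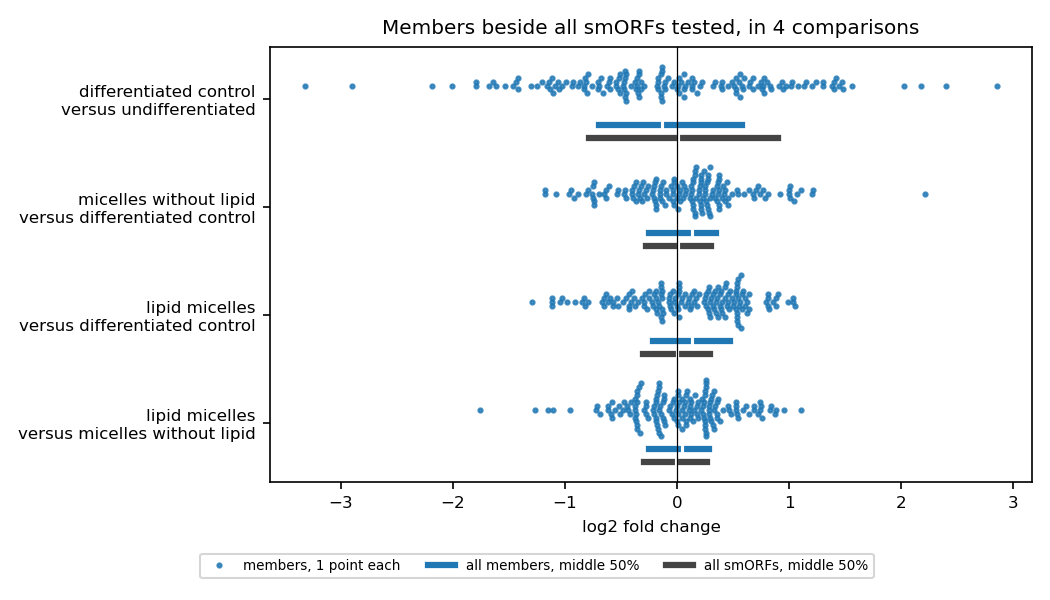
Log2 fold change of each of the 162 members tested (blue points) in the 4 comparisons, with the middle 50% and the median (white tick) of the members in blue and of all smORFs in dark grey. The member medians are -0.14, 0.13, 0.13 and 0.05 from top to bottom, and RAB1A is drawn at its bound in the top row.

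The smORFs nearest to a change with micelles are given as values, since none passed the test. RAB9A directs late endosome to Golgi transport. Its ATG uORF IEC_00461 (chrX:13703850-13703873, plus strand, 8 amino acids) had 3.91 and 5.20 CPM in control cells, 27.2 and 18.0 after micelles without lipid, 4.46 and 8.15 after lipid micelles, and 9.43 and 5.33 in undifferentiated cells. The 2 libraries given micelles without lipid stood above the other 6, on 15 and 13 counts against 2 to 7. The log2 fold change was 2.21 ± 0.66 against control (SE, edgeR adjusted p = 0.881) and that of lipid micelles against micelles without lipid was -1.75 ± 0.60 (adjusted p = 0.999).

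SEC63, which assists the SEC61 channel, had at its uORF IEC_16736 counts of 22 and 18 in control cells, 8 and 10 after micelles without lipid, 27 and 19 after lipid micelles, and 33 and 32 in undifferentiated cells. Micelles without lipid were the lowest group (-1.17 ± 0.47 against control, edgeR adjusted p = 1, and 1.10 ± 0.47 for the lipid micelles relative to them, adjusted p = 0.999). The smORF IEC_22416, assigned to the secretory vesicle RAB RAB3D but lying in exons of TMEM205, had 19.5 and 32.5 CPM in control cells and 61.6 and 49.8 CPM after micelles without lipid (1.04 ± 0.37, edgeR adjusted p = 1). RAB17 IEC_13823, whose values are given above, did not pass the test for micelles without lipid (-0.81 ± 0.31, edgeR adjusted p = 1).

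After lipid micelles against control, the SNX19 uORF IEC_13908 had 86.2 and 85.0 CPM against 27.4 and 53.3 CPM (1.03 ± 0.34, edgeR adjusted p = 0.957). The RAB17 uORF IEC_20073, which lies inside IEC_13824, had 351 and 352 CPM against 240 and 238 CPM, with close agreement within each group (0.55 ± 0.23, edgeR adjusted p = 0.957). On the other side, SEC61G IEC_16084 had 28.2 and 31.4 CPM against 50.8 and 54.6 CPM (-0.82 ± 0.34, adjusted p = 0.957) and SEC31A IEC_16134 had 86.2 and 108 CPM against 143 and 160 CPM (-0.64 ± 0.28, adjusted p = 0.957). Neither pair overlapped. Between lipid micelles and micelles without lipid, the remaining named smORFs were SEC16A IEC_24112, at 32.7 and 25.6 CPM against 12.7 and 18.0 CPM (0.89 ± 0.43), and RAB23 IEC_19771, at 10.4 and 6.99 CPM against 12.7 and 27.7 CPM (-1.27 ± 0.53), both at an edgeR adjusted p of 0.999.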

How the data were processed

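Ribo-Seq libraries were made by the authors from 8 Caco-2 samples labelled as 4 groups of 2. The authors aligned reads to hg38 with STAR (2.7.11a in the submitters' processing notes), assembled transcripts with StringTie, scored translated frames with RibORF, kept smORFs of up to 150 amino acids and a score of at least 0.7, and deposited raw counts per smORF from HOMER, with strand and multi-mapping options not given in the sources used here. The deposited annotation holds RibORF and PhyloCSF scores. Columns were matched to the labels by name, and 0 per-library columns were left out.

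All 24199 smORFs entered one edgeR 4.0.16 fit (R 4.3.3): filterByExpr, TMM, quasi-likelihood tests with 1 mean for each group, all 8 libraries together, two-sided p-values adjusted by Benjamini-Hochberg over the 15182 smORFs tested, and a call at an adjusted p under 0.05 with a change of 1 or more on the log2 scale, the limits the study used for RNA-seq. Standard errors were derived from the F statistic. Overlapping smORFs were joined into clusters by shared exonic bases on a strand, and placement used GENCODE 44. DESeq2 1.42.0, other scalings, other filters, 1 smORF per cluster, the 2 groups alone, the replicate block and the omission of each library were alternatives, and the members in exons of the host gene alone and the bounds for counts of 0 were added after seeing the data. Correlations of the deviations from group means, between libraries with the same replicate number, were 0.198, 0.119 and 0.109 for the differentiated groups. With undifferentiated cells they were -0.0653, -0.0177 and 0.0208. The main fit used no pairing. As an alternative, the replicate block was fitted on the 6 differentiated libraries for the micelle comparisons and on all 8 for differentiation. The fits were tested on simulated data. Intervals and limits cover counting error only.

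The smORFs named were, among those called with groups that did not overlap, 1 per host gene by the smallest p and up to 12 each way, the most abundant of each role, the 2 with the smallest p each way in each micelle comparison, and for each further list of trafficking genes the smallest p each way. Other members of a named host gene were added after their values were seen. The members, lists and rules were chosen with earlier results of these data known.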

Additional observations from a re-analysis of the deposited data

How the results depend on the processing

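Between undifferentiated and differentiated control cells, the 30 members called became 15 with DESeq2, 12 with 10 counts in every library, 16 with 1 smORF per overlap cluster, and 14 to 32 when each library was left out. They were 30 with RLE size factors, 33 with no filter, 30 with the 2 groups alone, 29 with the replicate block, under which SEC22C IEC_18438 alone of the 17 named lost its call, and 30 with members in exons of the host gene alone. The calls in common with the 30 were 15 for DESeq2, 10 for the filter and 16 for 1 smORF per cluster. The filter and the clusters test fewer smORFs, and for DESeq2 the cause was not tested. The median log2 fold change of the members was 0.049 with 10 counts in every library, against -0.14, and -0.27 to -0.023 when libraries were left out. In the micelle comparisons 0 members were called under every alternative run, the replicate block included. Of 406 comparisons of a named smORF with an alternative, 368 kept direction and side of the threshold, 38 kept direction and lost the call, and 0 reversed. The 406 include the micelle results, which were not called and had no call to lose. All 38 losses fell among the 17 calls on differentiation, of which 5 were never lost, so the pooled count overstates how stable those calls were. The low counts behind several named smORFs (0 to 30 per library) and 2 libraries a group limit what can be told apart, so a change that was not called is not shown to be absent.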
